A study of Mus musculus with 12 samples.

Results

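Macrophages of the fetal testis were followed through 10 genes, *Csf1r*, *Adgre1*, *Cx3cr1*, *Mrc1*, *Cd68*, *C1qa*, *C1qb*, *C1qc*, *Aif1* and *Fcgr1*, taken by symbol from the 35976 symbols counted in 12 RNA-seq libraries. All 10 were present, and all 10 passed the filter on low counts in each comparison. The libraries came from testes of outbred Swiss (RjOrl) mice at embryonic day E15.5, each library being a pool of 3 embryos, with 3 pools in each of 4 groups. Pregnant females were gavaged daily from E6.5 to E15.5 with thiacloprid (*thia*), a neonicotinoid insecticide, at 6 mg/kg/day, or with 0 mg/kg/day, the oil alone. The F1 control and F1 *thia* groups were embryos of these females, exposed in the womb. The F3 control and F3 *thia* groups descended from such embryos through males crossed with unrelated untreated females, so the F3 *thia* embryos themselves received none. The males of an assay came from several litters, but which litters went into which pool is not given, and *P*-values measure the spread between pools only.

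Macrophages of a fetal organ come from the yolk sac, from the fetal liver and later from monocytes. They engulf dying cells, bind complement and antibody, and in the fetal testis they lie in the interstitium and along the vessels, where they are known for a part in vascular patterning and for contacts with Leydig cells. Their survival depends on the receptor encoded by *Csf1r*, which binds the growth factors CSF1 and IL-34. The 10 genes cover the growth factor receptor and surface receptors (*Csf1r*, *Adgre1*, *Cx3cr1*, *Mrc1*), a lysosomal glycoprotein and a calcium-binding protein of actin ruffles (*Cd68*, *Aif1*), the chains of C1q, which starts the classical complement pathway (*C1qa*, *C1qb*, *C1qc*), and the high-affinity receptor for IgG (*Fcgr1*).

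Levels are given as CPM, that is counts scaled to a common library size with TMM factors, and 1 CPM corresponded to 27.0 to 66.8 counts in a library. The total count ranged from 25081647 to 56638738 in F1 control pools, from 37867969 to 62786622 in F1 *thia*, from 35216128 to 40614301 in F3 control and from 38415415 to 68996146 in F3 *thia*. Each of the 10 genes was detected in every library, the lowest count being 38 for *Aif1* in F1 control replicate 3 and the highest 2662 for *Csf1r* in F3 *thia* replicate 3. Markers of the testis itself were present in every library: the 8 fetal Leydig cell genes summed to 2690 to 8763 CPM per library, the 8 Sertoli cell genes to 758 to 2010 CPM and the 8 germ cell genes to 356 to 1246 CPM. The 10 macrophage genes together summed to 73.7 to 246 CPM.

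The genes lie at 8 places of the genome, since the C1q genes are neighbours on chromosome 4. In RefSeq coordinates on GRCm38.p6, *C1qb* spans chr4:136880126-136886200, *C1qc* chr4:136889801-136892936 and *C1qa* chr4:136895916-136898844, all on the minus strand. Promoter sequence from RefSeq (250 bases before and 50 bases after the start, GRCm38.p6) was at hand for 7 of the 10 genes, *Cx3cr1*, *Mrc1*, *Cd68*, *C1qb*, *C1qc*, *Aif1* and *Fcgr1*. They were searched on both strands for GAGGAA, the purine-rich core that the myeloid factor PU.1 (the product of *Spi1*) binds, which reads TTCCTC on the other strand. It was found in 6 of the 7 promoters and in 28.3% of 32851 promoters of the same length. The longer form GAGGAAGT, which contains the shorter one, was found in *C1qc* only among the 7, and in 3.2% of all promoters. A match of these letters is a description of the window, not a binding site. The following sequences show the neighbouring *C1qb* and *C1qc*, one gene each of the lysosome and of IgG binding, and the one promoter of the 7 without a match, with the matches in capitals:
C1qb promoter, chr4:136886151-136886450, minus strand: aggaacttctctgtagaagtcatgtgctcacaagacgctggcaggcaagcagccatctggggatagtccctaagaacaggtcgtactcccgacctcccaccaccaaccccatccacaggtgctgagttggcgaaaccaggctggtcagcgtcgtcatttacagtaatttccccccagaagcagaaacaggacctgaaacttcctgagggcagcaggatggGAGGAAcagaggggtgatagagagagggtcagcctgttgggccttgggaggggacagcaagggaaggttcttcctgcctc
C1qc promoter, chr4:136892865-136893164, minus strand: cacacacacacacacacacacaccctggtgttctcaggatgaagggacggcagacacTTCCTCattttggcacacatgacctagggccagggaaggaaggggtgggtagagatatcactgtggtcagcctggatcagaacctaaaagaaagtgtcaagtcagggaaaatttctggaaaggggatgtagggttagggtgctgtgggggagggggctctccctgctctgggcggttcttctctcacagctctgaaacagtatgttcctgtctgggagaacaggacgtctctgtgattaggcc
Cd68 promoter, chr11:69666121-69666420, minus strand: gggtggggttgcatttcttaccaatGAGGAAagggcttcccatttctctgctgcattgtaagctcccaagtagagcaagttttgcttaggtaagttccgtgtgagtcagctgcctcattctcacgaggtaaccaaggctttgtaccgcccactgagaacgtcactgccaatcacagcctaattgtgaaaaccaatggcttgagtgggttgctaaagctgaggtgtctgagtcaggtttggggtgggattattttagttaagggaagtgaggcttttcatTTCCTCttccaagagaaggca
Fcgr1 promoter, chr3:96293920-96294219, minus strand: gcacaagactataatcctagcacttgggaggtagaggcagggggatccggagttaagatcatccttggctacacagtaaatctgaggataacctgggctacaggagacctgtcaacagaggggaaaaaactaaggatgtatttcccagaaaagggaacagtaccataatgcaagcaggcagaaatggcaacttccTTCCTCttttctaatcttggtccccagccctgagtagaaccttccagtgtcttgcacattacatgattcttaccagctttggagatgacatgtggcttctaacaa
Cx3cr1 promoter, chr9:120068247-120068546, minus strand: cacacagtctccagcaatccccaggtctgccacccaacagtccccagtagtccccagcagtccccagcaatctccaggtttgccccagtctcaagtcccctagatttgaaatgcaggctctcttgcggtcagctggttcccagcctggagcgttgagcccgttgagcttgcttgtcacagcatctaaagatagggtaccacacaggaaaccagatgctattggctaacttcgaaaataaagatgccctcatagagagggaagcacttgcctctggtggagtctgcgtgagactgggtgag
The match began 30 bases before the start site in *C1qb*, 193 bases before it in *C1qc* and 55 bases before it in *Fcgr1*. *Cd68* held a match 225 bases before the start and another on the opposite strand 29 bases after it.

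To compare genes with each other, levels were divided by the exonic length. Per kilobase, the C1q chains were the most abundant of the 10 in every group. In F1 control, *C1qa* stood at 8.48 ± 1.46 CPM per kb, *C1qb* at 7.71 ± 1.26 and *C1qc* at 5.72 ± 0.966 (SD, n = 3), and the ranges of neighbours in this order overlapped. A gap followed in all 4 groups, with no overlap between *C1qc* and the gene ranked after it. In F1 that gene was *Cd68*, at 3.89 ± 0.242 CPM per kb in control pools, while in F3 it was *Csf1r*, at 7.24 ± 1.77 CPM per kb in control pools against 5.51 ± 1.34 for *Cd68* (n = 3 each), with overlapping ranges. *Fcgr1* was the lowest in every group, at 0.650 ± 0.107 CPM per kb in F1 control and 1.66 ± 0.372 in F3 *thia* (n = 3 each), and did not overlap the gene above it.

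*Csf1r* was measured at 16.8, 14.2 and 13.2 CPM in the F1 control pools (replicates 1 to 3, the order used below) and at 20.5, 17.9 and 19.1 CPM in F1 *thia*. In F3 it was at 31.8, 29.1 and 45.3 CPM in control and at 29.1, 50.4 and 39.9 CPM in *thia*. All F1 *thia* pools lay above all F1 control pools, the F3 groups overlapped, and the lowest F3 pool lay above the highest F1 pool.

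*Adgre1*, which encodes an adhesion receptor widely used to mark mouse macrophages, stood at 6.40, 5.05 and 5.56 CPM in F1 control and at 7.45, 5.50 and 6.5 CPM in F1 *thia*. The F3 values were 14.5, 11.3 and 20.4 CPM in control and 12.2, 23.4 and 11.5 CPM in *thia*. Control and *thia* overlapped in both generations, and all F3 pools lay above all F1 pools.

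For *Cx3cr1*, the receptor of fractalkine, F1 control pools gave 12.8, 10.7 and 12.9 CPM and F1 *thia* pools 14.9, 14.3 and 12.85 CPM. F3 control pools gave 17.5, 18.1 and 29.6 CPM and F3 *thia* pools 18.0, 24.98 and 21.3 CPM. The generations again did not overlap, while the treatment groups did within each of them.

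The mannose receptor gene *Mrc1*, typical of tissue-resident macrophages, was at 15.2, 13.7 and 16.1 CPM in F1 control and at 20.5, 17.0 and 14.5 CPM in F1 *thia*. It was at 28.3, 26.8 and 42.6 CPM in F3 control and at 27.1, 36.2 and 25.9 CPM in F3 *thia*. Its treatment groups overlapped in both generations, and every F3 pool exceeded every F1 pool.

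*C1qa*, the A chain of C1q, stood at 10.47, 8.48 and 7.49 CPM in F1 control and at 15.2, 10.8 and 11.3 CPM in F1 *thia*. The F3 pools had 21.6, 19.0 and 32.3 CPM in control and 18.7, 31.0 and 24.7 CPM in *thia*. The lowest F1 *thia* pool was just above the highest F1 control pool, and the F3 groups overlapped.

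*C1qb*, the B chain, was at 9.75, 7.01 and 8.42 CPM in F1 control and at 11.98, 9.59 and 10.05 CPM in F1 *thia*, which overlapped by the lowest *thia* pool. In F3 the values were 18.1, 15.7 and 24.3 CPM in control and 15.6, 28.1 and 18.7 CPM in *thia*. *C1qc*, the C chain, gave 8.22, 6.22 and 6.19 CPM in F1 control and 11.2, 9.37 and 9.21 CPM in F1 *thia*, with no overlap. Its F3 values were 16.3, 13.1 and 25.03 CPM in control and 13.8, 32.4 and 19.4 CPM in *thia*, with the widest range of the 3 chains in F3 *thia*. All 3 chains were higher in every F3 pool than in any F1 pool. The ratio of *C1qa* to *C1qb* was 1.06 ± 0.161 in F1 control, 1.17 ± 0.0849 in F1 *thia*, 1.24 ± 0.0749 in F3 control and 1.21 ± 0.110 in F3 *thia* (n = 3 each). That of *C1qc* to *C1qb* was 0.822 ± 0.0781, 0.942 ± 0.0313, 0.920 ± 0.0995 and 1.025 ± 0.137 in the same order. The second ratio did not overlap between the F1 groups, at 0.736 to 0.888 in control and 0.917 to 0.977 in *thia*. All other ratios computed did overlap there, namely *C1qa* to *C1qb* and each of *C1qa*, *Adgre1*, *Cd68* and *Mrc1* to *Csf1r*. The ratios were not tested.

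*Cd68* differed least between the generations in control pools. It was at 4.68, 5.23 and 4.75 CPM in F1 control, 5.51, 5.23 and 4.35 CPM in F1 *thia*, 6.17, 5.74 and 8.85 CPM in F3 control and 6.61, 9.81 and 7.21 CPM in F3 *thia*. The highest F1 pool, 5.51 CPM, and the lowest F3 pool, 5.74 CPM, nearly met. The ratio of *Cd68* to *Csf1r* was 0.336 ± 0.0493 in F1 control, 0.263 ± 0.0326 in F1 *thia*, 0.196 ± 0.00164 in F3 control and 0.201 ± 0.0237 in F3 *thia* (n = 3 each).

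The genes with the fewest counts overlapped more. *Aif1* was at 2.17, 1.58 and 1.41 CPM in F1 control, 2.32, 1.74 and 2.39 CPM in F1 *thia*, 3.35, 3.42 and 4.30 CPM in F3 control and 2.23, 4.78 and 3.07 CPM in F3 *thia*. One F3 *thia* pool, replicate 1, lay inside the F1 range. *Fcgr1* was at 1.92, 1.38 and 1.74 CPM in F1 control, 2.92, 1.54 and 2.94 CPM in F1 *thia*, 3.29, 2.83 and 5.29 CPM in F3 control and 3.73, 5.41 and 3.76 CPM in F3 *thia*. Its lowest F3 pool, in the control group, was below its highest F1 pool, in the *thia* group.

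**Figure D1:**
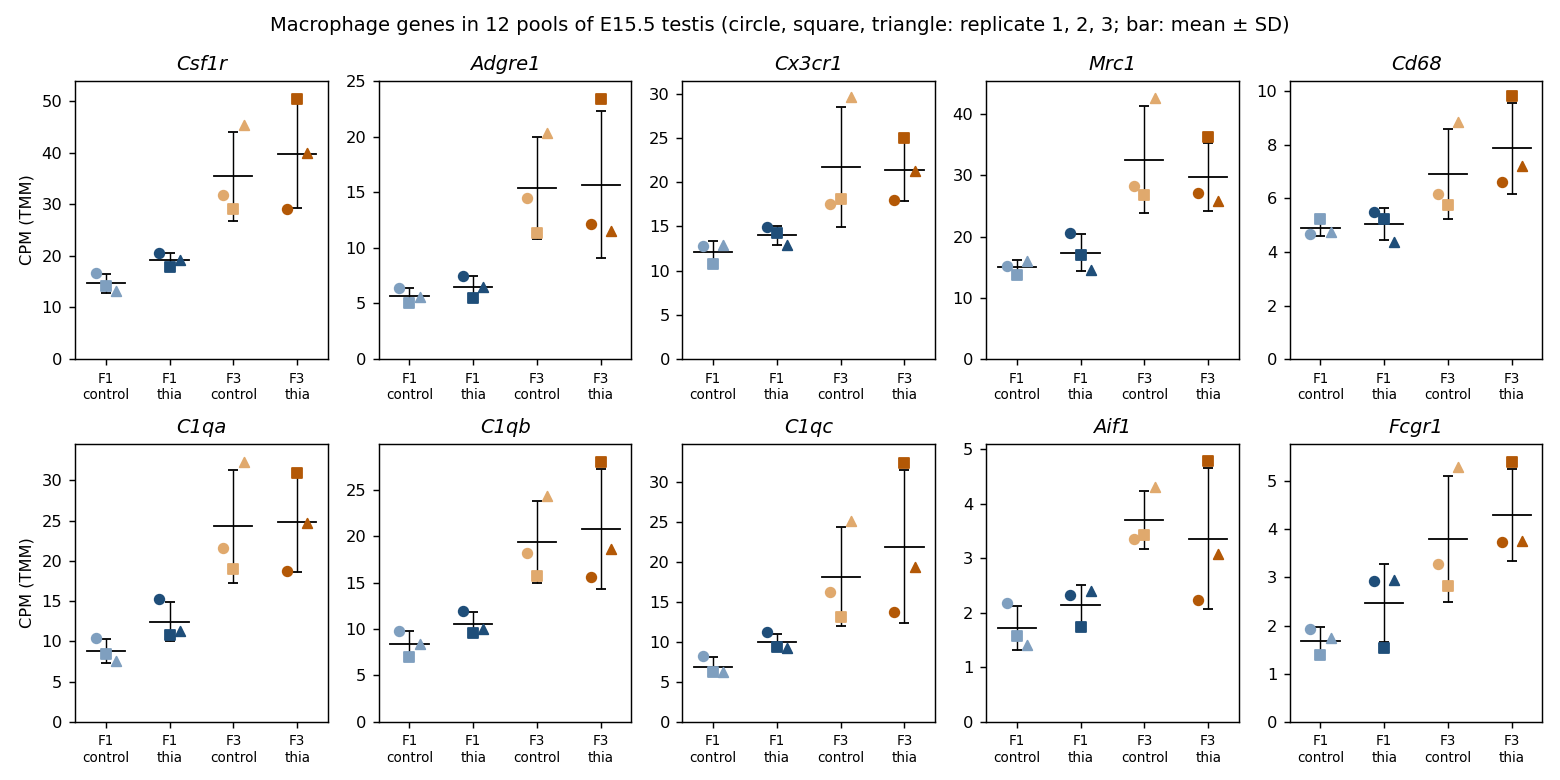
Level of each of the 10 macrophage genes (y axis, CPM after TMM scaling, from 0) in the 4 groups (x axis), with each point a pool, the horizontal line the group mean and the bar ± 1 SD over 3 pools. The F3 pools lie above the F1 pools in 8 of the 10 panels, and F3 control replicate 3 (triangle) and F3 *thia* replicate 2 (square) are the highest pool of their group in every panel.

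Exposure in the womb was tested by comparing F1 *thia* with F1 control. No macrophage gene passed the FDR of 0.15 in edgeR's quasi-likelihood test (0 of 10, against 0.0105% of the 19137 genes tested, that is 2 genes), although the log2 fold change was above 0 for all 10. Their median was 0.34, beside 0.01 over all genes, of which 52% were above 0. An unadjusted *P* under 0.05 was reached by 4 of the 10, *Csf1r*, *C1qa*, *C1qb* and *C1qc*, all higher in *thia*, while 8.76% of all genes reached that level and 4.63% did so on the higher side. All *thia* pools exceeded all control pools for 3 of the 10, *Csf1r*, *C1qa* and *C1qc*, and for 6.55% of all genes. In a pooled organ, more cells of a type and more RNA per cell cannot be told apart.

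The difference was 0.54 ± 0.16 for *C1qc* (log2 fold change ± SE, adjusted *P* = 0.481), 0.51 ± 0.17 for *C1qa* (adjusted *P* = 0.518) and 0.40 ± 0.12 for *Csf1r* (adjusted *P* = 0.492). The 95% interval for *Csf1r* ran from 0.13 to 0.66. *Cd68* had the smallest difference, 0.05 ± 0.16 (adjusted *P* = 0.922). The Wald test of DESeq2, run as an alternative, called *C1qc* alone, at an adjusted *P* of 0.15. Summed over the 10 genes, F1 control pools had 88.3, 73.7 and 77.7 CPM and F1 *thia* pools 112.5, 93.0 and 93.2 CPM, a ratio of 1.25 between the means.

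The other macrophage lists also had 0 genes past the threshold in F1, but they were not all higher to the same degree. Their median log2 fold change was 0.44 for 4 further IgG receptor genes, 0.29 for receptors and signalling partners and 0.28 for monocyte and MHC class II genes. It was 0.23 for genes of the yolk sac and fetal liver state, 0.18 for growth factors and transcription factors and 0.17 for complement partners of C1q. It was 0.12 for lysosome and engulfment and -0.04 for the 7 cytokine genes tested. The growth factors and transcription factors summed to a mean of 198.5 CPM in F1 control and 198.6 CPM in F1 *thia*. Of 21 macrophage receptors and signalling partners, 0 passed the threshold and 3 had an unadjusted *P* under 0.05, the adaptor *Fcer1g* (0.50), the lipid receptor *Trem2* (0.53) and the integrin *Itgb2* (0.57). Among 12 growth factors and transcription factors 0 passed, and *Nr1h3*, a sterol-sensing nuclear receptor, had the smallest *P* (log2 fold change 0.85, adjusted *P* = 0.446). Among 18 genes of lysosome and engulfment 0 passed, with *Gpnmb* at 0.82 (adjusted *P* = 0.446). The 13 genes expressed by all leukocytes summed to 69.9 to 83.7 CPM in F1 control and to 84.9 to 89.9 CPM in F1 *thia*. Skeletal muscle genes, foreign to the testis, summed to 667 CPM in F1 *thia* replicate 2 and to 71.5 to 138 CPM in F1 control, and that pool was not the highest F1 *thia* pool for any of the 10 genes. Germ cell genes had fold changes of the opposite sign in F1. All 8 were below 0 on the log2 scale with a median of -0.56, 6 of them at an unadjusted *P* under 0.05, and *Dppa3*, a germ cell gene of pluripotency, was 1 of the 2 genes called (-1.69, adjusted *P* = 0.0278). The germ cell sum was 936 to 1246 CPM in F1 control and 768 to 951 CPM in F1 *thia*. The part of either list in the F1 values was not tested.

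Ancestral exposure was tested by comparing F3 *thia* with F3 control. The macrophage genes showed no difference that could be told from the spread between pools: 0 of 10 passed the FDR of 0.1 (0% of the 18539 genes tested did), and 0 had an unadjusted *P* under 0.05, which 21.1% of all genes had. DESeq2 called 0 of the 10 as well. The log2 fold changes ran from -0.14 (*Aif1*, ± 0.30 SE) to 0.26 (*C1qc*, ± 0.35 SE), with a median of 0.06 beside 0.00 over all genes. They were above 0 for 7 of the 10 and for 50.6% of all genes, and control and *thia* pools overlapped for every one of the 10. The intervals were wide, from -0.39 to 0.72 for *Csf1r* and from -0.56 to 0.61 for *C1qa*. Summed over the genes, the pools had 160.8, 145.2 and 237.9 CPM in F3 control and 147.1, 246.3 and 175.4 CPM in F3 *thia*, a ratio of 1.05.

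Genes around the macrophage were more varied in F3. *Cx3cl1*, the ligand of the *Cx3cr1* receptor, averaged 11.0 CPM in control and 16.6 CPM in *thia*, with no overlap (log2 fold change 0.60, adjusted *P* = 0.109). The complement genes *C3* (1.06, adjusted *P* = 0.197) and *C1ra* (0.58, adjusted *P* = 0.152) and the endothelial C-type lectin gene *Cd93* (0.91, adjusted *P* = 0.105) were among 5 of 11 complement partners with an unadjusted *P* under 0.05. Of all genes, 21.1% reached that level, and 0 of the 11 passed the threshold. *C3* overlapped between the groups, at 20.9 to 28.5 CPM in control and 28.1 to 92.4 CPM in *thia*. *C4b* was lower in *thia* (-0.33, adjusted *P* = 0.161). Markers of other testis cells differed in the same comparison, and their part in these values was not tested. Of 12 endothelial genes, 10 were higher and 1 lower in *thia* at an unadjusted *P* under 0.05 and 0 passed the threshold, and their sum was 245 to 272 CPM in F3 control and 332 to 400 CPM in F3 *thia*. All 8 fetal Leydig cell genes were above 0, with a median of 0.92 and 5 at an unadjusted *P* under 0.05, and their sum was 2690 to 4408 CPM in control and 4881 to 8763 CPM in *thia*. All 8 germ cell genes were below 0, with 4 at an unadjusted *P* under 0.05. None of these genes passed the threshold in edgeR.

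Whether the effect of *thia* differed between generations was tested as an interaction over all 12 libraries. For 0 of the 10 genes did the difference pass the FDR of 0.1 (0.0051% of 19626 genes did, that is 1 gene), and 0 had an unadjusted *P* under 0.05, which 14% of all genes had. DESeq2 also called 0. The estimates were below 0, that is smaller in F3, for 9 of the 10, with a median of -0.25, and ranged from -0.47 (*C1qa*, interval -1.16 to 0.23) to 0.14 (*Cd68*, interval -0.46 to 0.75).

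**Figure D2:**
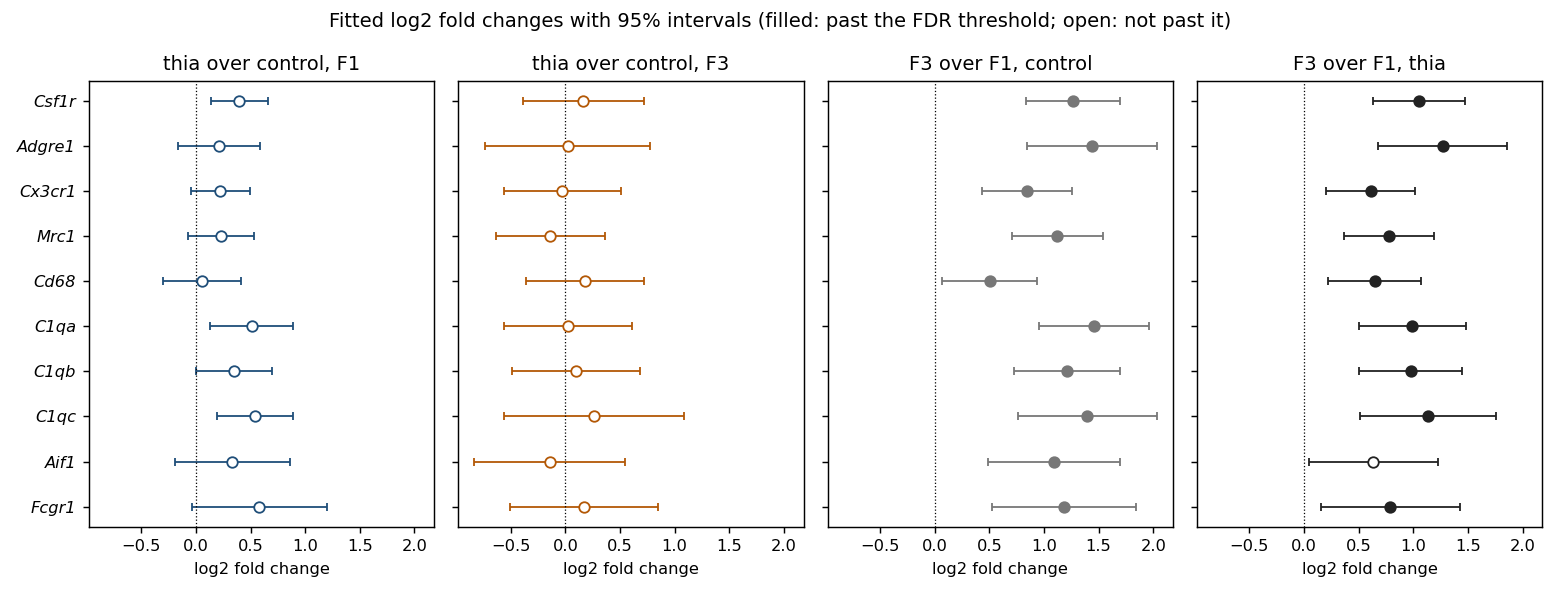
Fitted log2 fold changes of the 10 genes (x axis) with 95% intervals, for *thia* over control in F1 and in F3 and for F3 over F1 in control and in *thia* pools. All 10 estimates of the F1 effect lie above 0 with none past the threshold, the intervals of the F3 effect cross 0 for all 10 genes, and the F3 over F1 differences are past the threshold (filled) for 10 genes in control and 9 in *thia*.

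The clearest contrast was between the generations. In control pools, all 10 macrophage genes were higher in F3 than in F1 at an FDR of 0.1, a background against which 42.3% of the 19626 genes were called in either direction and 19.9% were called higher. The log2 fold changes had a median of 1.20, beside -0.02 over all genes. The groups did not overlap for any of the 10, nor for the 23.3% of all genes whose F3 control pools all lay higher. Under upper quartile scaling, the same 10 genes were called, while the split over all genes moved from 3912 higher and 4388 lower to 5016 higher and 3229 lower. The F3 and F1 animals were bred and sampled generations apart and the labels do not say which libraries were prepared together, so generation and library preparation cannot be told apart.

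The largest difference was that of *C1qa*, from a mean of 8.82 to 24.3 CPM, or 2.75-fold (log2 1.46 ± 0.23 SE, adjusted *P* = 0.000838). *Adgre1* was 2.71-fold higher (1.44 ± 0.28, adjusted *P* = 0.00223), *C1qc* 2.63-fold (1.40 ± 0.29, adjusted *P* = 0.00377) and *Csf1r* 2.40-fold (1.26 ± 0.20, adjusted *P* = 0.000784). *C1qb*, *Fcgr1*, *Mrc1* and *Aif1* followed at 2.31-fold, 2.27-fold, 2.18-fold and 2.14-fold. The chemokine receptor *Cx3cr1* differed less, 1.79-fold (0.84 ± 0.19, adjusted *P* = 0.00556), and *Cd68* least, 1.42-fold (0.50 ± 0.20, adjusted *P* = 0.0696). Without F3 control replicate 3, the call of *Cd68* was lost (0.28, adjusted *P* = 0.312), and the other 9 calls held. It was lost also without any single F1 control replicate (adjusted *P* 0.106 to 0.15).

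In *thia* pools, 9 of the 10 were higher in F3 than in F1 (25.5% of all genes were called, and 13.5% called higher), a comparison added after the data were seen. The log2 fold changes had a median of 0.88 beside 0.00 over all genes. *Adgre1* was 2.41-fold higher (1.27 ± 0.27, adjusted *P* = 0.0127), *C1qc* 2.20-fold (1.14 ± 0.29, adjusted *P* = 0.0227) and *Csf1r* 2.07-fold (1.05 ± 0.20, adjusted *P* = 0.00875). *Aif1* did not pass (0.63 ± 0.27, adjusted *P* = 0.128). Leaving out F3 *thia* replicate 2 left 6 calls, with *Cx3cr1* (adjusted *P* = 0.157), *Cd68* (adjusted *P* = 0.177) and *Fcgr1* (adjusted *P* = 0.267) lost. The same 3 were lost without F1 *thia* replicate 2, and *Cx3cr1* and *Cd68* without F1 *thia* replicate 3. *Fcgr1* was lost also without F1 *thia* replicate 1 (adjusted *P* = 0.108) and without F3 *thia* replicate 3 (adjusted *P* = 0.111). Over both treatments, all 6 F3 pools exceeded all 6 F1 pools for 8 of the 10 genes, as they did for 9.51% of all genes; *Aif1* and *Fcgr1* were the exceptions. The summed level was 2.27 times higher in F3 than in F1 among control pools and 1.90 times higher among *thia* pools.

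The pathways around these genes showed which macrophage features were higher together. The comparison of F3 control with F1 control is given for lists written with earlier results of these data known. The lists are described by counts and, for some, medians, and no list was tested as a whole. Log2 fold changes and some adjusted *P*-values of single genes, from the edgeR test over all genes, are given beside them. Since the lists were chosen with results known, these *P*-values are descriptive and are no independent support for a list. Among receptors and their signalling partners, 15 of 21 were called higher and 1 lower, with a median log2 fold change of 1.15. They included the adaptors *Tyrobp* (1.63) and *Fcer1g* (1.17), the integrin chains *Itgb2* (1.49) and *Itgam* (1.15), *Trem2* (1.41), the endosomal RNA sensor *Tlr7* (1.40) and the endotoxin coreceptor *Cd14* (1.12). The kinase *Syk* was called lower (-0.46), and *Sirpa* (0.05) was not called. Of 4 IgG receptor genes, 3 were called higher, *Fcgr3* (1.28), *Fcgr2b* (1.04) and the neonatal receptor *Fcgrt* (0.67).

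Genes typical of macrophages from yolk sac and fetal liver stood out by their median, 1.60 for 12 genes, of which 10 were called higher and 0 lower. The haptoglobin-haemoglobin receptor *Cd163* rose most (log2 2.65, adjusted *P* = 0.000221), from a mean of 0.190 to 1.18 CPM. It was followed by the lectin *Fcna* (2.17), the phosphatidylserine receptor *Timd4* (1.96), *Cbr2* (1.96), the coagulation factor chain *F13a1* (1.85), the folate receptor *Folr2* (1.73), the scavenger receptor *Stab1* (1.38) and the hyaluronan receptor *Lyve1* (1.35). *Gas6* (0.19) and *Igf1* (0.17) were not called. In *thia* pools 12 of these 12 were called higher in F3, with a median of 1.44, beside 13.5% of all genes called higher.

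Monocyte genes and antigen presentation parted. *Ccr2*, the receptor that draws monocytes out of the blood, was called higher (1.01, adjusted *P* = 0.00268), as were *Ly6c2* (3.42), *Plac8* (1.06) and *Chil3* (2.08). *Ly6c2* was low, at a mean of 1.30 CPM in F3 control. Which cells the RNA of these genes came from was not tested. The MHC class II genes *H2-Aa* (0.29), *H2-Ab1* (0.38), *H2-Eb1* (0.08) and *Cd74* (-0.03) were not called, and their regulator *Ciita* was called lower (-1.38, adjusted *P* = 0.0138). They were present at low levels, *H2-Aa* at 0.610 CPM and *Cd74* at 4.69 CPM in F1 control.

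Of 18 genes of lysosome and engulfment, 8 were called higher and 1 lower. The 9 called stand beside 42.3% of all genes called in either direction, and the 8 higher beside 19.9%. The 8 included the bactericidal enzyme lysozyme *Lyz2* (1.87), the oxidase chain *Cybb* (1.90), the scavenger receptor *Msr1* (1.36) and cathepsin S *Ctss* (1.04). *Ctsd* (0.11), *Lamp1* (-0.14) and *Axl* (-0.16) were among those not called. Which cells the RNA of the called genes came from was not tested. Among the complement partners of C1q, 4 of 11 were called higher, *C4b* (1.14), *C2* (1.11), the receptor *C3ar1* (1.08) and the inhibitor *Serping1* (0.59). *Cd93* was called lower (-1.18). With 5 of 11 called in either direction, this list was near the 42.3% of all genes. *C1ra* (-0.21) and *C1s1* (0.33), which encode the proteases that C1q carries, and *C3* (-0.26) were not called.

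Of the cytokine genes, *Ccl6* (2.34), *Ccl9* (1.81) and *Ccl2* (1.75) were called higher out of 7 tested. Of all genes, 19.9% were called higher and 42.3% in either direction, so this list was near the latter share. *Ccl2* was low, at 0.601 CPM in F3 control, and averaged 0.399 CPM in F1 *thia* and 0.372 CPM in F3 *thia*. *Il1b*, *Il6*, *Tnf* and *Cxcl2*, which mark inflammatory activation, were too low to test. *Cxcl2* was at 0 in the 3 F3 control pools, and *Il1b* averaged 0.0372 CPM and *Tnf* 0.0919 CPM there. Growth factors that maintain macrophages were not called, with *Csf1* at 8.82 CPM in F1 and 11.4 CPM in F3 (0.37, adjusted *P* = 0.115) and *Il34* at 0.887 and 1.23 CPM (0.45, adjusted *P* = 0.375). *Cx3cl1* was called lower in F3 (-0.75, adjusted *P* = 0.0109), in contrast to its receptor. Among the transcription factors *Spi1*, which encodes PU.1, was called higher (1.09, adjusted *P* = 0.0132), as was *Nr1h3* (1.12, adjusted *P* = 0.0186). *Maf* (-0.22) and *Irf8* (-0.12) were not called, and *Cebpb* (-0.51) was called lower.

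**Figure D3:**
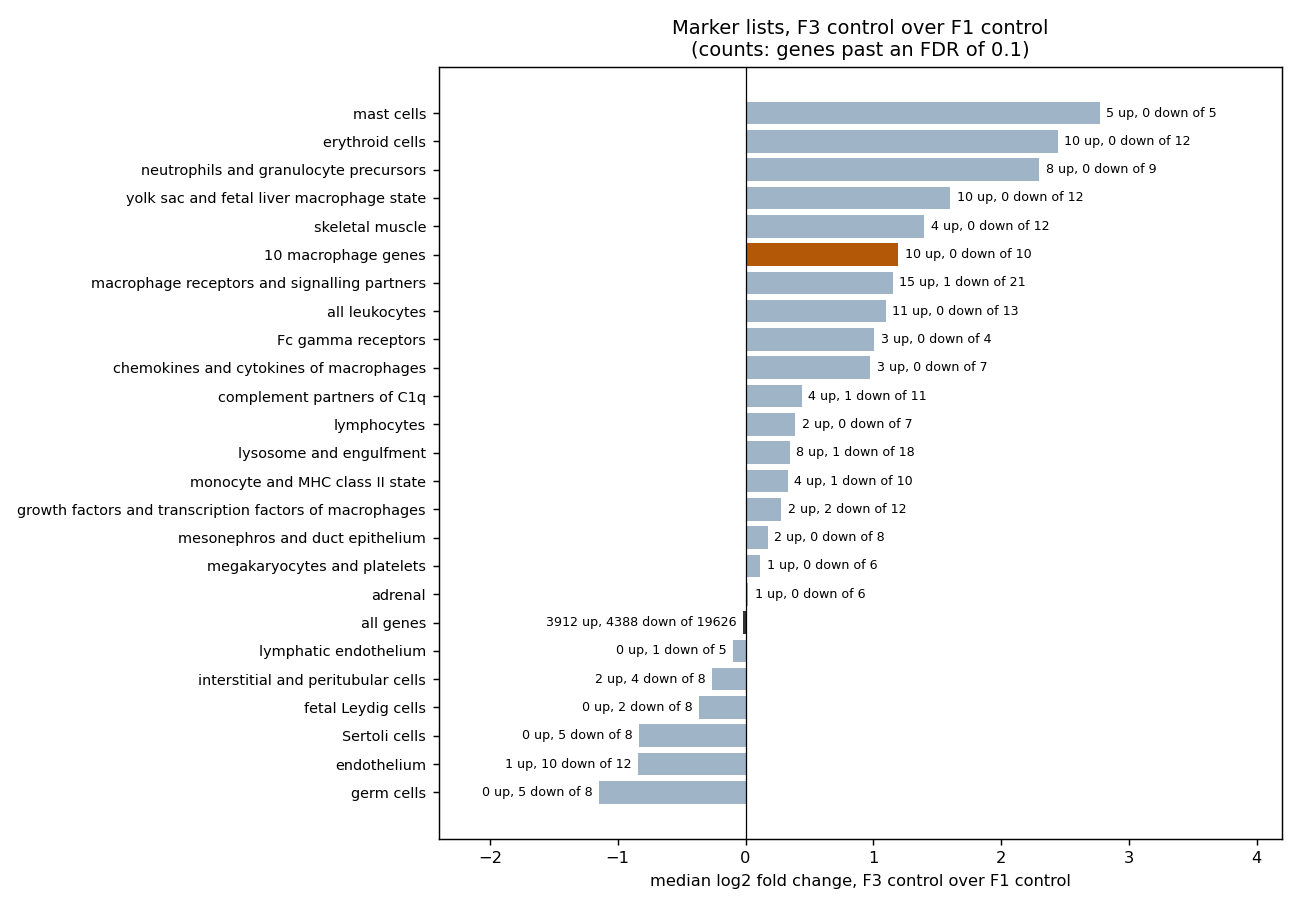
Median log2 fold change of F3 control over F1 control (x axis) for the macrophage genes, the other marker lists and all genes (y axis), with the number called higher and lower at an FDR of 0.1 beside each bar. The 10 macrophage genes (orange, median 1.20) lie between the mast cell, erythroid and neutrophil lists at the top and Sertoli, endothelial and germ cell lists at the bottom.

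Other blood cells differed between the generations in the same direction. Of 12 erythroid genes 10 were called higher and 0 lower in F3 control, and their sum was 5283 to 15584 CPM in F1 control, 7907 to 19165 in F1 *thia*, 62427 to 67207 in F3 control and 45507 to 83761 in F3 *thia*, with no marker at 0. Of 9 neutrophil genes 8 were called higher, among them *S100a8* (2.42) and *Camp* (2.78), and the sum was 30.1 to 44.6, 32.0 to 66.4, 130.4 to 226 and 104.7 to 488 CPM in the same order. Of 7 mast cell genes 5 could be tested and all 5 were called higher, led by *Cpa3* (3.23) and *Tpsb2* (3.14), with sums of 10.4 to 12.6, 11.3 to 18.4, 27.6 to 44.3 and 24.2 to 24.3 CPM, while *Mcpt4* and *Fcer1a* were at 0 in 2 F1 control pools each. The 9 lymphocyte genes summed to 5.41 to 11.6 CPM over the 12 pools. Of the 7 tested, 2 were called higher, beside 19.9% of all genes. Of the 13 genes of all leukocytes, 11 were called higher, with a median of 1.10, and the common antigen *Ptprc* was not (0.77, adjusted *P* = 0.108).

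Lists of testis and vessel cells went the other way in control pools. Called lower in F3 were 10 of 12 endothelial, 5 of 8 Sertoli and 5 of 8 germ cell genes, and 1, 0 and 0 were called higher. Over all 19626 genes, 3912 were called higher and 4388 lower. The summed endothelial level was 335 to 401 CPM in F1 control and 245 to 272 CPM in F3 control. Among genes of other tissues and cells, called higher and lower were 4 and 0 of 12 for skeletal muscle, 2 and 0 of 8 for mesonephros and ducts, 1 and 0 of 6 for adrenal, 1 and 0 of 6 for megakaryocytes, 2 and 4 of 8 for interstitial cells, 0 and 2 of 8 for Leydig cells and 0 and 1 of 5 for lymphatic vessels. Of the 12 skeletal muscle genes, 10 had log2 fold changes above 0, with a median of 1.40. The part of all these lists in the difference between generations was not tested.

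**Figure D4:**
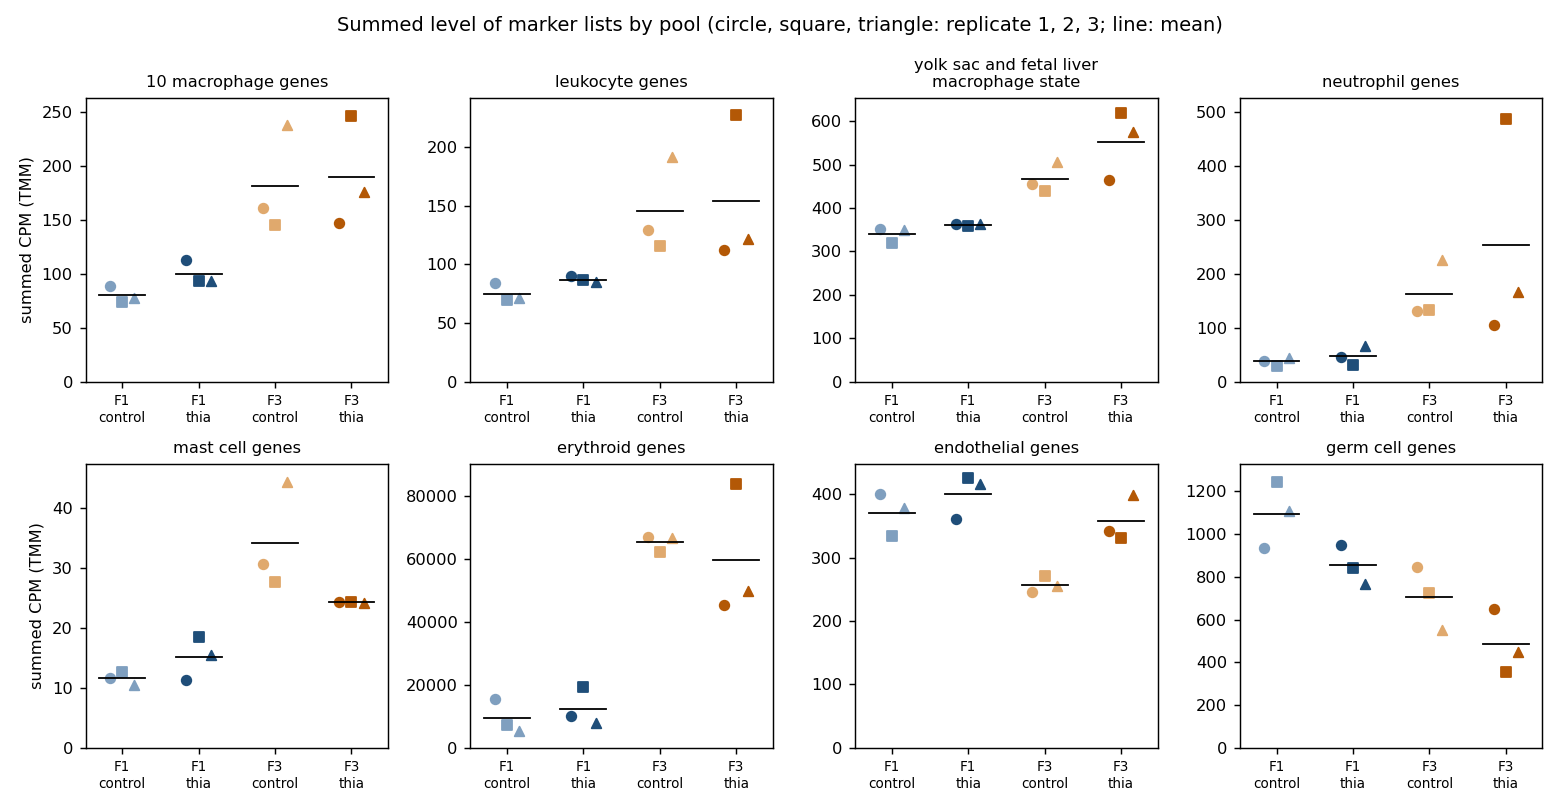
Summed CPM of 8 marker lists (y axes, from 0) in the 12 pools (x axis, by group), with the horizontal line at the group mean. The macrophage, leukocyte, neutrophil, mast cell and erythroid panels are higher in every F3 pool than in any F1 pool, and the endothelial and germ cell panels are lower in F3 control than in F1 control.

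Within a group the macrophage genes varied together. In F3 control replicate 3 all 10 genes were above their group mean, by 0.42 on average on the log2 scale, and in F3 *thia* replicate 2 all 10 were above it, by 0.43. In F3 control replicates 1 and 2 and F3 *thia* replicate 1, 0 of 10 were above. F1 pools differed less, the highest being F1 *thia* replicate 1 (0.19, 10 of 10 above) and F1 control replicate 1 (0.17, 9 of 10 above). Other lists also stood apart in the high F3 pools, control replicate 3 and *thia* replicate 2. The sums of neutrophil genes (226 and 488 CPM), of leukocyte genes (191 and 227 CPM) and of skeletal muscle genes (308 and 229.9 CPM) were the highest of their groups there. Those of germ cell genes (549 and 356 CPM) and Sertoli cell genes (832 and 758 CPM) were the lowest. Their part in the spread of the macrophage genes was not tested.

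With group means removed, each gene was correlated with the mean of the other 9 over the 12 libraries, which share depth and composition within a pool. Pearson's *r* ran from 0.771 for *Fcgr1* to 0.968 for *C1qb*. Within the 6 F3 libraries it was 0.878 (*Aif1*) to 0.993 (*Cd68*). Within the 6 F1 libraries it was more uneven, from -0.0492 for *Cd68* over 0.468 for *Mrc1*, 0.476 for *Cx3cr1* and 0.605 for *Fcgr1* to 0.965 for *Adgre1*. The correlations over F3 rest largely on the high pool of each group.

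The genes outside the 10 whose deviations were most like their mean, among 19616 tested genes over 12 libraries, were *Pdss1* (*r* = 0.986), *Tifab* (0.970), *Pf4* (0.960), *Abhd14b* (0.960), *Nckap1l* (0.955), *Clec4a2* (0.953), *Mt1* (0.948), *Tnfrsf1b* (0.947), *Myo1f* (0.947) and *Gpd1* (0.943). Of these 10, 9 were called higher in F3 control than in F1 control, beside 19.9% of all genes. *Clec4a2* (log2 1.66, adjusted *P* = 0.00311), *Pf4* (1.25, adjusted *P* = 0.0109), *Nckap1l* (1.19, adjusted *P* = 0.00656) and *Myo1f* (0.99, adjusted *P* = 0.00692) were among the 9, and *Pdss1*, which ranked first in likeness, was not (0.19, adjusted *P* = 0.226). *Gpd1* ranged from 4.04 to 16.1 CPM in F3 control and from 3.52 to 21.1 CPM in F3 *thia*, and *Mt1* from 43.3 to 151 CPM and from 44.9 to 144 CPM.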

How the data were processed

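RNA of 12 pools of E15.5 testes was read with paired ends from strand-specific libraries. Alignment by the authors used HISAT2 2.1.0 on mm10 (base calls were converted with bcl2fastq 2.20.0.422), and featureCounts summed the reads of each refGene symbol. The deposited values are raw counts for 35976 symbols, with 0 rows that name no gene. Whether read pairs or reads were counted is not given in the sources used here. The authors tested these counts with DESeq2 2.11.40.7, and their results were not used here.

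Under R 4.3.3, edgeR 4.0.16 (with limma 3.58.1) took the counts through filterByExpr, whose minimum was set to 10, and through TMM scaling. The quasi-likelihood test was used with Benjamini-Hochberg adjustment over all genes tested, at an FDR of 0.15 in F1 and 0.1 elsewhere. Each generation was fitted apart, and the interaction and the contrasts between generations were fitted over 12 libraries. Log2 CPM used a prior count of 2. SEs were derived from the test. Alternatives were DESeq2 1.42.0, other scalings, filters and thresholds, a replicate block and the removal of libraries. The scripts were tested on simulated data, and figures were made with Python 3.11.15. No libraries of a group were the same within sampling noise. Gene positions were those of RefSeq on GRCm38.p6, the build mm10 stands for. Exonic lengths, used for levels per kb, were the union of a gene's exons in the GENCODE basic annotation of GRCm38. The 10 genes and the 23 other lists were chosen with earlier results of these data known. All 10 genes are named. From another list, a gene that carries a result is taken from those called in a comparison, or else from at most the 3 with the smallest *P* in each generation, besides the most abundant gene per length, and not every called gene is named. The 10 genes whose deviations correlated best with the mean of the 10 macrophage genes are named too. Genes named as not called, such as those of MHC class II, the cytokines and the growth factors, and the complement and globin genes beyond the 3 of a list, were chosen after their values were seen.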

Additional observations from a re-analysis of the deposited data

How the results depend on the processing

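The macrophage genes called were 0 in F1 under every alternative but the Wald test of DESeq2, which called 1, and 0 in F3 and for the interaction under all alternatives run. Between generations, 9 or 10 were called in control pools under all alternatives and 6 to 10 in *thia* pools. Over all genes, F1 calls went from 2 to 199 with DESeq2, 243 with no filter, 0 with all 12 libraries in 1 fit and 0 to 20 without single libraries. F3 calls went from 0 to 2288 with DESeq2, 520 with upper quartile scaling, 569 with no filter, 333 with at least 10 counts in every library, 1936 with all 12 libraries in 1 fit and 0 to 1294 without single libraries, the highest without *thia* replicate 2. Interaction calls went from 1 to 634 with DESeq2, 0 with a replicate block and 0 to 4 without single libraries. Calls between F3 and F1 *thia* pools went from 5010 to 3153 at an FDR of 0.05 and to 2201 to 6048 without single libraries. With F3 control replicate 3 and F3 *thia* replicate 2 both left out, an alternative chosen after seeing the data, F3 calls were 207, interaction calls 2 and calls between *thia* pools 2321, with 9 and 7 of the macrophage genes called between generations in control and *thia* pools. The causes were not tested.

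In F3, log2 fold changes changed sign for *Adgre1* with upper quartile scaling (-0.01007), a replicate block (-0.0182) and both libraries left out (-0.11), for *C1qa* with upper quartile scaling (-0.006884) and for *Cx3cr1* with a replicate block (0.004162) and both libraries left out (0.15). Without single libraries they ranged from -0.03635 to 0.39 for *Csf1r*, -0.38 to 0.29 for *Adgre1*, -0.16 to 0.27 for *Cx3cr1*, -0.30 to 0.12 for *Mrc1*, -0.004825 to 0.41 for *Cd68*, -0.16 to 0.29 for *C1qa*, -0.18 to 0.30 for *C1qb*, -0.13 to 0.58 for *C1qc*, -0.47 to 0.07 for *Aif1* and -0.0272 to 0.49 for *Fcgr1*. In F1, *Cd68* ranged from -0.0167 to 0.15. The interaction ranged from -0.41 to 0.00527 for *Csf1r*, -0.57 to 0.0842 for *Adgre1*, -0.37 to 0.0578 for *Cx3cr1*, -0.0409 to 0.36 for *Cd68* and -0.65 to 0.0458 for *C1qc*. Between generations in control pools, 193 of 200 alternative values of single genes kept direction and call, and the other 7, all *Cd68*, kept the direction only. The summed level was recomputed with other scalings, without single libraries and without single genes. It kept its direction in each of these except in F3 *thia* against control, where it ranged from -0.17 to 0.31 (log2) without single libraries.

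Same-numbered control and *thia* pools deviated with correlations of -0.0433, -0.039 and 0.0316 in F1 and 0.195, -0.368 and -0.238 in F3. With 3 pools a group, these values cannot decide whether the numbers pair the pools. The paper states that the whole breeding was repeated, and the labels do not give the round of each pool. The replicate block changed no call of the macrophage genes, and genes called went from 2 to 3 in F1 and stayed at 0 in F3. With 3 pools a group, the calls at the F1 threshold depended on the tool, as the single call of DESeq2 for *C1qc* shows.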

Other observations

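Between F3 *thia* and F3 control, blood cell lists did not move as one. The mast cell protease gene *Cpa3* averaged 12.1 CPM in control and 3.82 CPM in *thia*, with no overlap (log2 fold change -1.68, adjusted *P* = 0.101). *Tpsb2*, a mast cell tryptase, averaged 5.05 and 2.64 CPM (adjusted *P* = 0.157), and its groups overlapped. Of the 5 mast cell genes tested, 4 were lower and 1 was higher in *thia*. The mast cell gene *Hdc* averaged 11.7 CPM in control and 14.1 CPM in *thia*. The embryonic globin genes *Hbb-y* (267 and 46.1 CPM, adjusted *P* = 0.101), *Hba-x* (77.2 and 24.8 CPM, adjusted *P* = 0.102) and *Hbb-bh1* (6.54 and 2.63 CPM, adjusted *P* = 0.111) were also lower in every *thia* pool than in any control pool. None of these passed the FDR of 0.1 in edgeR, and 2575 of the 18539 genes tested were lower in every *thia* pool than in any control pool. The adult globin gene *Hbb-bs* averaged 28373 CPM in control and 26349 CPM in *thia*.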
